A study of Mus musculus with 9 samples.

Results

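The C1q and TNF-related protein (CTRP) family was followed here through 8 of its genes, *C1qtnf1*, *C1qtnf2*, *C1qtnf3*, *C1qtnf4*, *C1qtnf5*, *C1qtnf6*, *C1qtnf7* and *C1qtnf12*, among the 55416 genes of an RNA-Seq count table. The members were chosen by family from measured values, with the counts of these same 9 libraries known, so each level, difference and call of a member is given as a description, and no p value is given for it. The cells were AdvSca1-SM cells, smooth muscle–derived adventitial progenitors that express Sca1, sorted as YFP+ and Sca1+ from the aorta and carotid arteries of pooled 8-week-old SM22α-Cre YFP mice and expanded in culture before use. YFP in this model marks any cell with a history of SM22α promoter activity, and the Sca1 gate narrows this to cells with Sca1. The paper allows that rare smooth muscle cells of the media with Sca1 were among them. Each group had 3 libraries taken after 72 hours with 0.1% DMSO. Stem cells received vehicle, TGF-β cells received 5 ng/mL TGF-β1, and Both cells received 5 ng/mL TGF-β1 with 50 µM PFI-3, a ligand of the Brg1 bromodomain, Brg1 being a chromatin remodeler. Stem cells were kept in serum-containing stem cell medium with growth factors, whereas the other groups were growth arrested and held in low-serum DMEM, so medium and TGF-β1 cannot be told apart between Stem and TGF-β. TGF-β and Both differed in PFI-3. The labels do not say whether the 3 libraries of a group came from separate cultures. The paper calls the 3 replicates of a condition independent and reports biological replicates for all experiments, with cells from pooled mice. Standard errors and p values came from a model fitted to all 9 libraries together. They rest on the spread between these libraries but do not directly measure each gene's own spread. For genes with few counts in Stem the standard error can understate the error.

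CTRP proteins are secreted paralogs of adiponectin. A typical member carries a signal peptide, a collagen-like stretch and a C-terminal globular C1q domain whose fold resembles that of TNF, and the proteins assemble into trimers and larger complexes. Several are known as hormones of glucose and lipid metabolism, and several are made by stromal and vascular cells. The same C1q domain ends the complement C1q chains, the short-chain collagens VIII and X and the emilins.

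Total counts were between 35686291 and 47741128 per library. Of the 8 members, 6 passed the filter on low counts and are among the 14879 genes tested. *C1qtnf4* stayed under the filter and *C1qtnf5* was listed at 0 in every library. The markers of AdvSca1-SM cells summed to between 51000 and 59300 normalized counts for Stem, 12200 and 12300 for TGF-β and 10600 and 11100 for Both. Among these 5 markers, *Ly6a*, *Cd34*, *Pdgfra* and *Scara5* fell from Stem to TGF-β, whereas *Pi16* rose. The 6 smooth muscle and myofibroblast genes, mostly *Col1a1*, summed to between 89500 and 101000 for Stem, 724000 and 773000 for TGF-β and 514000 and 545000 for Both. The members of this list did not move together from Stem to TGF-β: *Col1a1*, *Postn*, *Acta2* and *Tagln* rose, *Myh11* fell by 1.58 log2 units (SE 0.208, adjusted p = 2.12e-05, edgeR), and *Cnn1* differed by -0.18 (SE 0.121, adjusted p = 0.203, edgeR). Markers of other cells summed to far less, and those of one list did not move together. The 6 endothelial markers summed to between 51.8 and 77.1 in all libraries. From Stem to TGF-β, mean normalized counts of *Kdr* rose from 0.7212 to 26.09, while those of *Tek* fell from 45.75 to 18.28. The 6 leukocyte markers summed to between 211 and 500, with *Adgre1* and *Itgam* at 0 throughout. *Cd14* made up 92.7% of this sum in Stem and fell from a mean of 408.3 to 137 in TGF-β. *Csf1r* rose from 28.49 to 76.09 and *Cd68* from 3.526 to 13.22. The 6 adipocyte markers summed to between 183 and 217 in the Stem libraries and between 39.6 and 52.7 in the other groups, nearly all of it *Fabp4*, with *Cidec* at 0 throughout and *Adipoq* at a single count in all. The extraction text of the labels names hepatic tissue, whereas their source is aorta and carotid artery. Of the 6 hepatocyte markers, 5, among them *Alb*, had at most 3 counts in any library, and the sum was between 237 and 277 in the Stem libraries and between 10.9 and 16.2 in the other groups, nearly all of it *Ahsg*. The part of these other cell types in the members' values was not tested.

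The sequence next to the start of a gene takes part in setting its transcription, beside more distant sites that are not shown. It is printed for the 4 members that had counts and an entry in the RefSeq promoter table, which holds 5 of the 8 members. No entry was found for *C1qtnf1*, *C1qtnf4* or *C1qtnf12*. Each line gives the 250 bases before the RefSeq start site on the GRCm38.p6 build, 5′ to 3′ on the gene's strand. Capitals mark the letters of 4 motifs searched on both strands: CAGAC, the core bound by SMAD proteins, which carry the TGF-β signal to the nucleus; TGANTCA, bound by AP-1; GGAATG, bound by TEAD factors; and TATAAA, the TATA box.
C1qtnf3, chr15:10952082-10952331, plus strand: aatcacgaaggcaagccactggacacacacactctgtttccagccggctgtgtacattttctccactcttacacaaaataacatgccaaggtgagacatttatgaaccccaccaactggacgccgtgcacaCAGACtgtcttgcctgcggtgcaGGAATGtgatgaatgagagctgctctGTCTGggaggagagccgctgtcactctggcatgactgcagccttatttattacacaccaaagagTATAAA
C1qtnf6, chr15:78529652-78529901, minus strand: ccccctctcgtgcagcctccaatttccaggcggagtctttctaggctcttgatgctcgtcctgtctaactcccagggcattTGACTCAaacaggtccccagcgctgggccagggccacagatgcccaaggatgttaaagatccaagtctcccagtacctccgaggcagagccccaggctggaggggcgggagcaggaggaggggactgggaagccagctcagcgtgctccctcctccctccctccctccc
C1qtnf7, chr5:43515319-43515568, plus strand: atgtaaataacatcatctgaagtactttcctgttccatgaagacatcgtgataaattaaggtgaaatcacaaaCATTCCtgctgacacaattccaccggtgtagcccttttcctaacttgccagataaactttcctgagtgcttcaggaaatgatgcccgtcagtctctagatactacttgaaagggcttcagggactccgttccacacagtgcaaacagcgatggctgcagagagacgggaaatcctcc
C1qtnf2, chr11:43474056-43474305, plus strand: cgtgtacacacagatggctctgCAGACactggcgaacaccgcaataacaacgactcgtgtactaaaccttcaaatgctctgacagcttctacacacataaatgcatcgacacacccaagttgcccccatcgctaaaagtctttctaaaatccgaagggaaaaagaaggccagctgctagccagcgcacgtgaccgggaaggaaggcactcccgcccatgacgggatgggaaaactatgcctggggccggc

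Motif matches were counted in the 300 bases from 250 before to 50 after the start. The *C1qtnf3* window held CAGAC starting at -119 and its reverse complement GTCTG at -70, GGAATG at -96 and TATAAA at -6. The *C1qtnf6* window held none of these and had TGACTCA at -169. The *C1qtnf7* window had CATTCC, the reverse complement of the TEAD motif, at -177 and GTCTG at 35 bases into the transcript. The *C1qtnf2* window had CAGAC at -228 and no other match. In the *C1qtnf5* window, not printed, GTCTG stood at -211 and CATTCC at -123. Matches of this kind are common: among 32851 RefSeq promoter windows of this length, 49.6% held CAGAC, 14.7% GGAATG, 13.6% TATAAA and 7.81% TGANTCA in either direction. The matches are letters found in a window and say nothing of binding in these cells.

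*C1qtnf3* (ENSMUSG00000058914) encodes CTRP3, a secreted protein first described in cartilage and later as an adipokine that restrains glucose output by the liver. It was barely counted in Stem and high in TGF-β and Both. In bulk RNA, more cells with a transcript and more transcript per cell cannot be told apart, here and for all genes that follow. The Stem libraries held 4, 4 and 6 counts of *C1qtnf3*, or 4.188, 4.346 and 6.491 normalized counts, where 3 counts correspond to between 2.63 and 3.26. The TGF-β libraries held 6894, 7146 and 6856 normalized counts, and the Both libraries 7298, 7810 and 6740. The means were 5.008 ± 1.29, 6965 ± 157 and 7283 ± 535 (SD, n = 3 each). Every library with TGF-β1 thus lay far above every Stem library, while TGF-β and Both overlapped. From the summed counts, 14 in Stem and 20457 in TGF-β, *C1qtnf3* was 1390-fold higher in TGF-β, with a 95% interval of 830 to 2550 that covers counting error only. The fitted log2 fold change was 10.41 (SE 0.112), the 2nd largest rise of all genes tested. A 95% interval from this SE, 10.16 to 10.65, is narrower than the counting interval above. The SE thus understates the error, and the counting interval is the safer guide. With PFI-3 added, the log2 fold change from TGF-β to Both was 0.06 (SE 0.0504, 95% interval -0.05 to 0.17), a difference smaller than the spread between libraries. The level of *C1qtnf3* in Both stood 10.47 log2 units above Stem (SE 0.112, which understates the error in the same way).

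*C1qtnf6* (ENSMUSG00000022440) encodes CTRP6, a secreted protein known as an inhibitor of the alternative complement pathway. Its normalized counts were 231.4, 268.4 and 264.0 for Stem, 682.0, 702.8 and 650.2 for TGF-β and 461.9, 490.6 and 453.8 for Both. The 3 groups did not overlap, and Both lay between Stem and TGF-β. The group means were 254.6 ± 20.2, 678.3 ± 26.5 and 468.7 ± 19.3 (SD, n = 3 each). *C1qtnf6* was 2.66-fold higher in TGF-β than in Stem, a log2 fold change of 1.41 (SE 0.0729). The change from TGF-β to Both was -0.53 (SE 0.0675, 95% interval -0.68 to -0.39), and *C1qtnf6* in Both remained 0.88 log2 units above Stem (SE 0.0741).

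*C1qtnf12* (ENSMUSG00000023571) encodes CTRP12, also called adipolin, an insulin-sensitizing adipokine that furin cleaves. Normalized counts of *C1qtnf12* were 143.4, 213.0 and 226.1 for Stem, 255.7, 294.1 and 257.7 for TGF-β and 156.7, 218.1 and 183.4 for Both. The TGF-β libraries were all above the others, and Stem and Both overlapped. The spread was wide for this gene, with means of 194.2 ± 44.4 in Stem and 186.1 ± 30.8 in Both against 269.2 ± 21.6 in TGF-β (SD, n = 3 each). *C1qtnf12* had a log2 fold change of 0.47 (SE 0.161) from Stem to TGF-β and -0.54 (SE 0.159) from TGF-β to Both. The call of the former difference at an adjusted p below 0.05 did not hold without Stem replicate 1, without TGF-β replicate 2 or with libraries scaled by total counts, and the log2 fold change lay between 0.3 and 0.6 over all single libraries left out.

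*C1qtnf7* (ENSMUSG00000061535), which encodes CTRP7, had the largest fall from Stem among the 6 members tested. Its normalized counts were 278.5, 353.1 and 261.8 for Stem, 76.62, 65.92 and 74.2 for TGF-β and 42.32, 36.52 and 40.37 for Both. No library of one group overlapped another group, and the order was Stem, TGF-β and Both from high to low. *C1qtnf7* was 4.12-fold lower in TGF-β than in Stem, a log2 fold change of -2.04 (SE 0.136). The log2 fold change with PFI-3 was -0.86 (SE 0.173, 95% interval -1.23 to -0.48), so the difference from Stem was larger in Both, at -2.9 (SE 0.146). The value for Stem rested on means of 297.8 ± 48.6 and those for TGF-β and Both on 72.25 ± 5.61 and 39.74 ± 2.95 (SD, n = 3 each).

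*C1qtnf2* (ENSMUSG00000046491) encodes CTRP2, a secreted protein that acts on lipid metabolism. Normalized counts of *C1qtnf2* were 277.4, 285.8 and 235.8 for Stem, 167.3, 156.2 and 166.0 for TGF-β and 259.3, 252.7 and 242.2 for Both. The TGF-β libraries were all below the others, and Both lay within the range of Stem. The means were 266.3 ± 26.7, 163.1 ± 6.06 and 251.4 ± 8.6 in the order Stem, TGF-β and Both (SD, n = 3 each). The log2 fold change was -0.71 (SE 0.0944) from Stem to TGF-β and 0.62 (SE 0.0936) from TGF-β to Both. Between Stem and Both *C1qtnf2* differed by -0.08 log2 units (SE 0.0892, 95% interval -0.28 to 0.11).

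*C1qtnf1* (ENSMUSG00000017446) encodes CTRP1, which is made in adipose tissue and in the vascular wall and blocks the aggregation of platelets on collagen. Its normalized counts were 1894, 1728 and 1920 in Stem, followed by 1490, 1378 and 1415 in TGF-β and 1499, 1481 and 1425 in Both. All libraries with TGF-β1 were below those of Stem, and TGF-β and Both overlapped. The means were 1847 ± 104, 1428 ± 57.1 and 1468 ± 38.8 (SD, n = 3 each). The log2 fold change was -0.37 (SE 0.0513) from Stem to TGF-β and 0.04 (SE 0.0514, 95% interval -0.07 to 0.15) from TGF-β to Both.

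**Figure D1:**
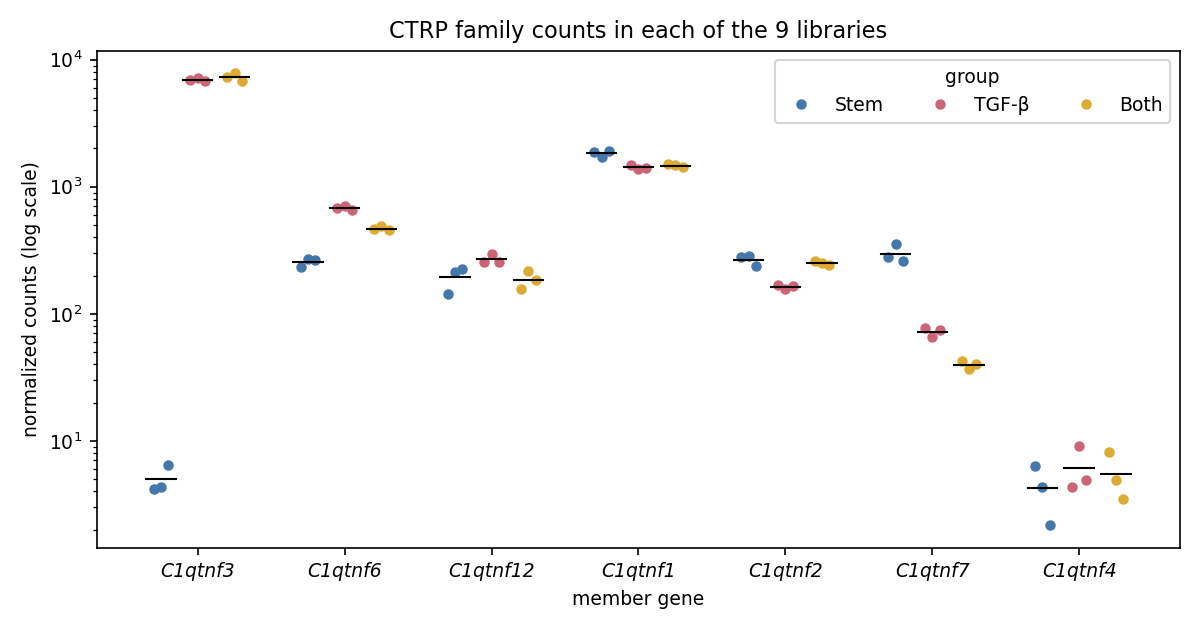
Normalized counts (log axis) of the 7 members with any counts, 1 point per library and a bar at each group mean. *C1qtnf3* stands at 4.188 to 6.491 in Stem and at 6740 or more in the other groups, whereas *C1qtnf7* steps down from Stem through TGF-β to Both.

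*C1qtnf4* and *C1qtnf5* gave little or nothing to compare. *C1qtnf4* (ENSMUSG00000040794), whose product carries a pair of C1q domains and no collagen-like stretch, had 6, 4 and 2 counts for Stem, 4, 9 and 5 for TGF-β and 9, 5 and 4 for Both. These overlap throughout, and the fold from the summed counts, 12 in Stem and 18 in TGF-β, was 1.43 with a 95% counting interval of 0.652 to 3.25. A difference in *C1qtnf4* was not detectable at this depth. *C1qtnf5* (ENSMUSG00000079592), whose product is mutated in a late-onset retinal degeneration, is transcribed together with *Mfrp*, a gene for a membrane protein of the retinal pigment epithelium. All 1589 exon bases of *C1qtnf5* in GENCODE M21 lie within exons of *Mfrp* or a read-through model, *Gm20444*, on the same strand. In 115 protein-coding genes, all exon bases are shared in this way with a gene that had at least 100 counts. Of these, 58, or 50.4%, were listed at 0 in every library. The share at 0 was 27.2% of the 15342 genes that share no exon base and 9.05% of the 6395 that share some. The latter sets were not chosen by counts, so these shares do not isolate the part of overlap. The rule by which reads on shared bases were counted is not given in the sources used here, so the 0 of *C1qtnf5* cannot be read as a lack of its transcript. *Mfrp* itself had 10, 17 and 19 counts for Stem, 65, 55 and 48 for TGF-β and 62, 51 and 50 for Both. It rose from Stem to TGF-β by a log2 fold change of 1.8 (SE 0.257, adjusted p = 4.32e-05 by edgeR's quasi-likelihood test), and 36.7% of its exon bases are those of genes on its strand. From TGF-β to Both *Mfrp* differed by -0.2 (SE 0.207, adjusted p = 0.617 by the same test). Reads on the bases that *C1qtnf5* and *Mfrp* share cannot be told apart in these counts. The rest of the 4334 exon bases of *Mfrp* lie outside *C1qtnf5*. How the *Mfrp* counts divide between these parts is not known from totals per gene. The other members shared no exon base on their own strand. *C1qtnf1* and *C1qtnf6* shared 20.5% and 4.33% with models on the opposite strand, which had 0 counts and 1 count in all.

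Between Stem and TGF-β, genes were called by edgeR's quasi-likelihood test at an adjusted p below 0.05 and a log2 fold change beyond 1 in size. Of the 6 members tested, *C1qtnf3* and *C1qtnf6* were called higher in TGF-β, where 10.6% of all genes tested were called higher, and *C1qtnf7* was called lower, where 14.5% of all genes were. By the adjusted p alone, 3 members were higher and 3 lower, beside 37.3% and 37.7% of all genes, and the same 3 higher and 3 lower members did not overlap between the groups, beside 38.1% and 38.7%. The median log2 fold change of the 6 members was 0.05, beside 0 for all genes, with *C1qtnf3* at one end and *C1qtnf7* at the other. Since the members were chosen with these counts known, nothing is read from their shares.

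Between TGF-β and Both, 0 of the 6 members passed the full threshold by edgeR's quasi-likelihood test, and 0 did so by DESeq2, while 4 had an unadjusted p below 0.05, as did 24.1% of all genes. Nothing is read from that count, since the members were chosen with these values known. Of all genes, 0.161% were called higher and 0.47% lower in Both. By the adjusted p alone *C1qtnf2* was higher, beside 3.54% of all genes, and *C1qtnf6* and *C1qtnf7* were lower, beside 5.38%. *C1qtnf2* did not overlap between the groups and was higher, as were 15.4% of all genes, and *C1qtnf6*, *C1qtnf7* and *C1qtnf12* did not overlap and were lower, as were 17.4%. The median of the 6 members was -0.25, beside 0 for all genes. This comparison and the former share the TGF-β libraries, so a high or low TGF-β value enters both with opposite sign, and their values are set side by side only. From Stem to Both, *C1qtnf3* was called higher and *C1qtnf7* lower, beside 9.55% and 13.2% of all genes.

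**Figure D2:**
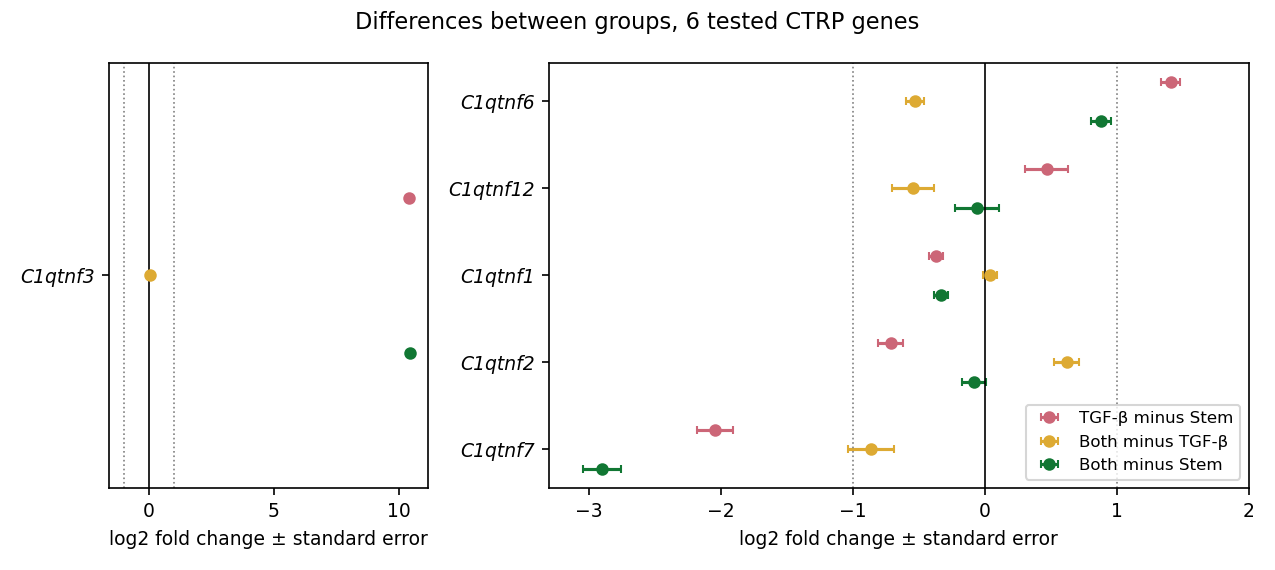
Log2 fold changes (horizontal axis) of the 6 members tested, with bars of 1 standard error, for TGF-β minus Stem, Both minus TGF-β and Both minus Stem. *C1qtnf3* has a panel of its own because its differences from Stem exceed 10, and dotted lines mark a 2-fold change. Its bars for differences from Stem understate the error, since its Stem counts were few. No difference between TGF-β and Both reaches the dotted lines.

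To compare members with each other, CPM, which are counts scaled to a fixed library total, here after TMM, were divided by the mean transcript length of each gene in kb. *C1qtnf5* enters every sum at 0, which cannot be read as a lack of its transcript. Sums and shares are thus those of the other members, without further CTRP genes. On this scale *C1qtnf1* led the members in Stem with a level of 30 ± 1.7 (SD, n = 3), 58.6% of the summed level of the 8 genes. *C1qtnf2* and *C1qtnf12* followed at 6.7 ± 0.673 and 6.54 ± 1.5, which did not differ beyond their spread, and then *C1qtnf6* at 4.11 ± 0.326 and *C1qtnf7* at 3.73 ± 0.61, whose ranges also overlapped. *C1qtnf4* and *C1qtnf3* were near the floor, at 0.0802 ± 0.0388 and 0.0549 ± 0.0141. The level of *C1qtnf1* in Stem exceeded that of 78.2% of the tested genes, and that of *C1qtnf3* only 1.81%.

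In TGF-β the order was another. *C1qtnf3* stood first at a level of 76.4 ± 1.73, which was 61.2% of the summed level of the 8 genes, and above 91.5% of the tested genes. *C1qtnf1* came next at 23.2 ± 0.928, followed by *C1qtnf6* at 11 ± 0.427 and *C1qtnf12* at 9.07 ± 0.728, whose ranges were apart, then *C1qtnf2* at 4.11 ± 0.153 and *C1qtnf7* at 0.905 ± 0.0703. In Both the first places were again those of *C1qtnf3* at 79.9 ± 5.87 and *C1qtnf1* at 23.9 ± 0.631, while *C1qtnf6* at 7.57 ± 0.312, *C1qtnf2* at 6.33 ± 0.216 and *C1qtnf12* at 6.27 ± 1.04 lay close together, with *C1qtnf2* inside the range of *C1qtnf12* and that range just reaching *C1qtnf6*, and *C1qtnf7* was at 0.498 ± 0.037. The summed level of the 8 genes was 51.2 ± 1.22 for Stem, 125 ± 2.2 for TGF-β and 124 ± 7.32 for Both, and in each of the latter the level of *C1qtnf3* alone exceeded the difference from Stem. With the longest transcript of each gene in place of the mean length, the sums were 31.2, 102 and 103, the share of *C1qtnf3* was 71.1% in TGF-β and 73.2% in Both, and *C1qtnf1* held 56.8% in Stem. The order of close neighbors depended on the length used. With the longest transcript the Stem levels of *C1qtnf2* (4.73 to 5.73) and *C1qtnf12* (2.65 to 4.17) no longer overlapped, nor did those of *C1qtnf6* (2.34 to 2.71) and *C1qtnf7* (1.64 to 2.21). In Both, *C1qtnf2* then had a higher mean than *C1qtnf6*, 5.04 against 4.74, with overlapping ranges, and *C1qtnf12* (2.89 to 4.03) was below both.

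**Figure D3:**
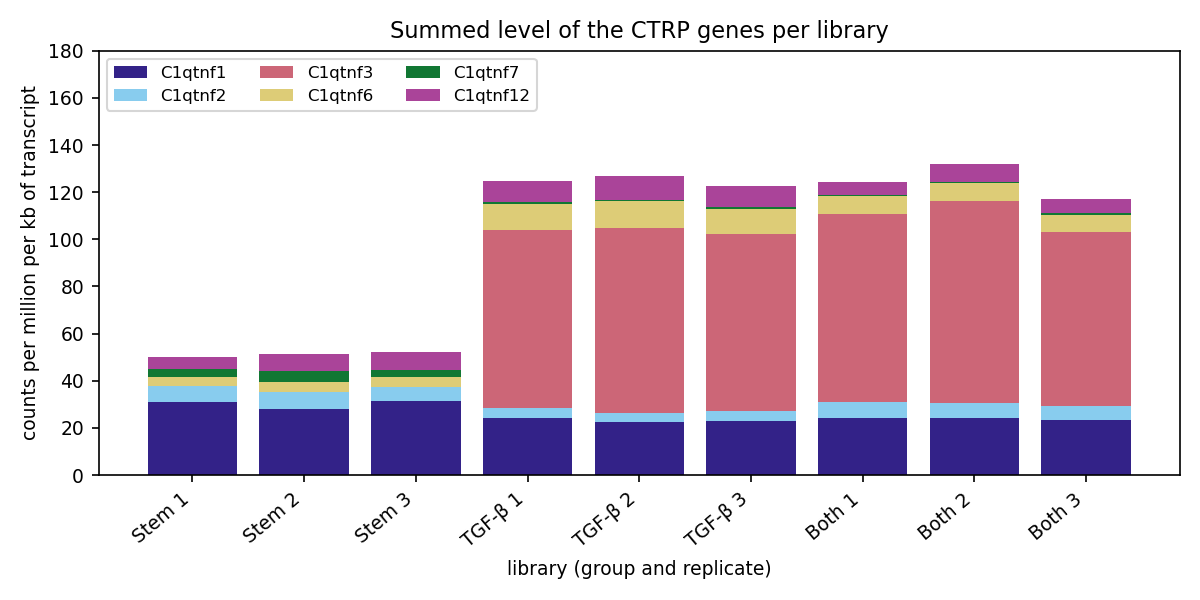
Stacked levels (CPM per kb of mean transcript length) of 6 members in each of the 9 libraries. *C1qtnf1* is the main block in the Stem libraries and *C1qtnf3* in all 6 libraries with TGF-β1. *C1qtnf4* is too low to draw, and *C1qtnf5* was listed at 0, which cannot be read as a lack of its transcript.

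The genes with the most similar profile were found for each member among 10876 other tested genes with at least 100 mean normalized counts, by the root mean square distance over the 9 libraries of centred log2(normalized count + 1). The likeness is a description over 9 libraries that share groups. *C1qtnf3* had no close match by this distance, which is not scaled to the size of a change. Its nearest genes were *Eln*, the gene of elastin, at a distance of 0.57, *Wnt10b*, a secreted Wnt ligand, at 1.26, and *Ighm*, the heavy chain of immunoglobulin M, at 1.56. Their Pearson correlations with *C1qtnf3* were 0.994, 0.994 and 0.997. *Wnt10b* and *Ighm* had Stem means of 0 and 0.3606 normalized counts, where the added 1 weighs on the distance. The mean normalized counts of *Eln* were 359.1 for Stem, 434200 for TGF-β and 204500 for Both. *Eln* thus differed by -1.09 log2 units from TGF-β to Both, whereas *C1qtnf3* differed by 0.06.

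*C1qtnf6*, with a smaller change, was matched far more closely by this distance. Its nearest genes were *Greb1* at 0.0329, *Cdkn2b*, a cyclin-dependent kinase inhibitor known as a TGF-β target, at 0.0737, and *Jag1*, a Notch ligand, at 0.0742. *Greb1* had means of 150.5, 419.3 and 283.9 normalized counts in Stem, TGF-β and Both. The nearest genes of *C1qtnf7* were *Lrrc17* at 0.218, *Gprin3* at 0.234 and *Id1*, an inhibitor of basic helix-loop-helix factors, at 0.242. *Lrrc17* had means of 273.1, 75.55 and 42.43.

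For *C1qtnf2* the nearest were *Cyp1b1* at 0.135, *Scarb2* at 0.144 and *Socs3*, an inhibitor of cytokine signaling, at 0.149. *Cyp1b1*, a cytochrome P450 enzyme, had means of 59670, 40120 and 57050 in Stem, TGF-β and Both. For *C1qtnf1* they were *Stxbp4* at 0.0258, *Rad54l2* at 0.0309 and *Axin1*, a scaffold of the β-catenin destruction complex, at 0.0331. For *C1qtnf12* they were *Fam84b* at 0.138, *Serpinb1a* at 0.145 and *Blvra*, a biliverdin reductase, at 0.155. When likeness was taken as Pearson correlation, which ignores the size of a change, 1 of the 3 names was shared for each of *C1qtnf1*, *C1qtnf2* and *C1qtnf6*, and 0 for each of *C1qtnf3*, *C1qtnf7* and *C1qtnf12*.

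**Figure D4:**
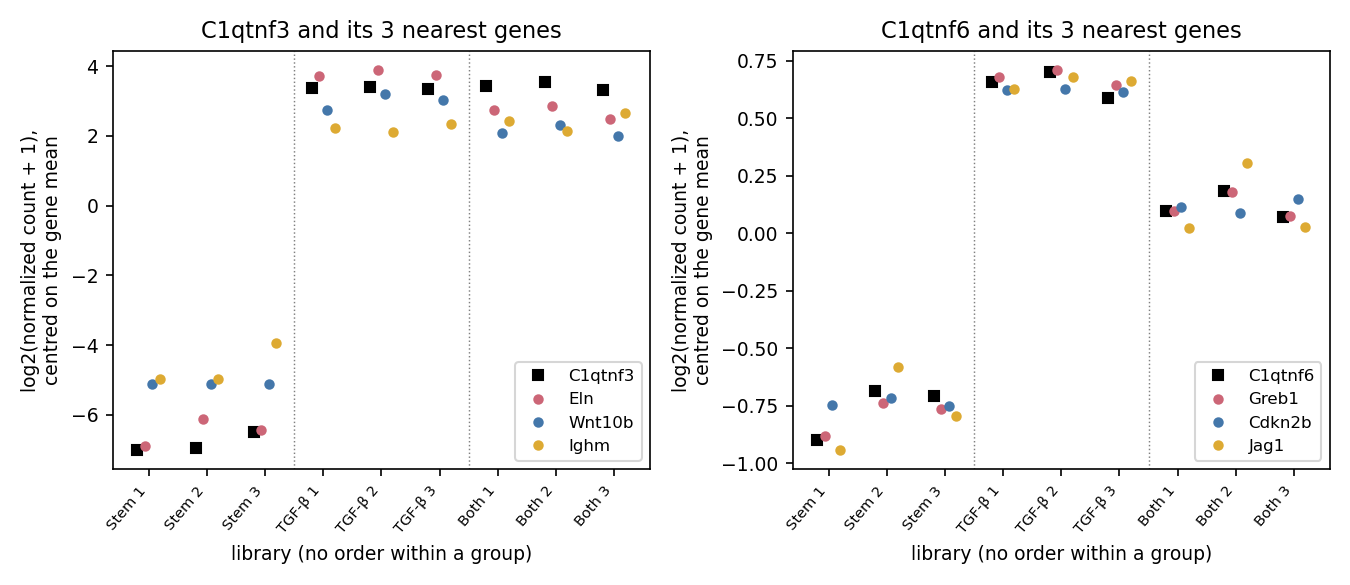
Log2(normalized count + 1), centred on each gene's mean (vertical axis), in the 9 libraries for *C1qtnf3* and for *C1qtnf6* (black squares) with their 3 nearest genes (colored circles). The genes near *C1qtnf6* lie nearly on top of it, with *Greb1* at a distance of 0.0329, while *Eln* lies below *C1qtnf3* in the Both libraries.

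The wider family was examined through 31 genes in 3 lists. The other CTRP and C1q-like genes numbered 6, the other genes with a C1q domain 17, and the receptors and binding partners 8. Of the 31, 14 were tested, 16 had at most 3 counts in every library, and 4 of these were listed at 0 throughout, the complement genes *C1qa*, *C1qb* and *C1qc* and the CTRP gene *C1qtnf9*. *Adipoq*, the gene of adiponectin, had a single count in all 9 libraries. Between Stem and TGF-β, 3 of the 14 rose and 1 fell past the threshold, beside 10.6% and 14.5% of all genes tested. The median log2 fold change of the 14 was 0.05, beside 0 for all genes.

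*Erfe* encodes erythroferrone, a CTRP relative that lowers hepcidin. It had 4, 3 and 6 counts for Stem, 132, 114 and 120 for TGF-β and 85, 110 and 86 for Both. *Erfe* rose from Stem to TGF-β in all libraries, by a log2 fold change of 4.71 (SE 0.285, adjusted p = 1.52e-08 by edgeR's quasi-likelihood test). The fold from summed counts was 26.8 with a 95% counting interval of 15.5 to 50.9. A 95% interval from the SE is narrower than this counting interval, so the SE understates the error. Its difference from TGF-β to Both was -0.53 (SE 0.165, adjusted p = 0.0691 by the same test).

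The network-forming collagens VIII and X end in a C1q domain. Of their 3 genes, 2 were called higher in TGF-β than in Stem, as were 10.6% of all genes tested. *Col8a2* had 71.19, 115.2 and 77.89 normalized counts for Stem, 838.5, 983.7 and 873.8 for TGF-β and 596.9, 743.2 and 547.7 for Both. *Col8a2* rose from Stem to TGF-β by 3.35 (SE 0.16, adjusted p = 1.83e-09, edgeR), and all TGF-β libraries were above all others. *Col10a1*, the collagen of hypertrophic cartilage, had 1, 2 and 2 counts in Stem against 70, 66 and 76 in TGF-β and 63, 46 and 46 in Both. The call for *Col10a1* (adjusted p = 1.46e-08, edgeR) started from counts at or under the floor of 3, and the fold from summed counts was 40.4 with a 95% counting interval of 17.1 to 126. *Col8a1*, named after its values were seen, had a log2 fold change of 0.58 (SE 0.0676, adjusted p = 7.3e-06, edgeR), under the fold minimum. *Emilin1* and *Emilin2*, elastic fiber–associated glycoproteins also named after their values were seen, had log2 fold changes of -0.75 (SE 0.0512) and -0.91 (SE 0.0388).

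Among receptors and partners, *Cdh13*, which encodes T-cadherin, an anchor for adiponectin on vascular cells, had 3148, 2724 and 2859 normalized counts for Stem, 487.8, 363.1 and 409.1 for TGF-β and 556.4, 432.3 and 580.2 for Both. *Cdh13* fell by 2.8 log2 units from Stem to TGF-β (SE 0.115, adjusted p = 4.42e-10, edgeR), with no overlap between those groups. The adiponectin receptor genes, named after their values were seen, differed from Stem to TGF-β by 0.72 for *Adipor1* (SE 0.0392, adjusted p = 5.91e-09, edgeR) and by 0.02 for *Adipor2* (SE 0.0489, adjusted p = 0.671, edgeR). *Furin*, the protease that cleaves CTRP12, also named after its values were seen, differed by 0.07 (SE 0.0976, adjusted p = 0.519, edgeR).

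Between TGF-β and Both, 0 of these 14 genes passed the threshold by edgeR's quasi-likelihood test and 0 by DESeq2, while 8 had an unadjusted p below 0.05, beside 24.1% of all genes. By the adjusted p alone 1 was higher and 3 were lower in Both, beside 3.54% and 5.38% of all genes. The 3 lower genes were *Col8a1* at -0.26 (SE 0.0674, adjusted p = 0.0312, edgeR), *Col8a2* at -0.52 (SE 0.124, adjusted p = 0.0227) and *Col10a1* at -0.6 (SE 0.165, adjusted p = 0.0415), and the higher gene was *Emilin2* at 0.14 (SE 0.039, adjusted p = 0.0444). Each of these 4 calls by edgeR was lost in at least 5 of the 9 fits that left out 1 library, with the highest adjusted p between 0.113 and 0.202. The median of the 14 was 0.02, beside 0 for all genes.

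**Figure D5:**
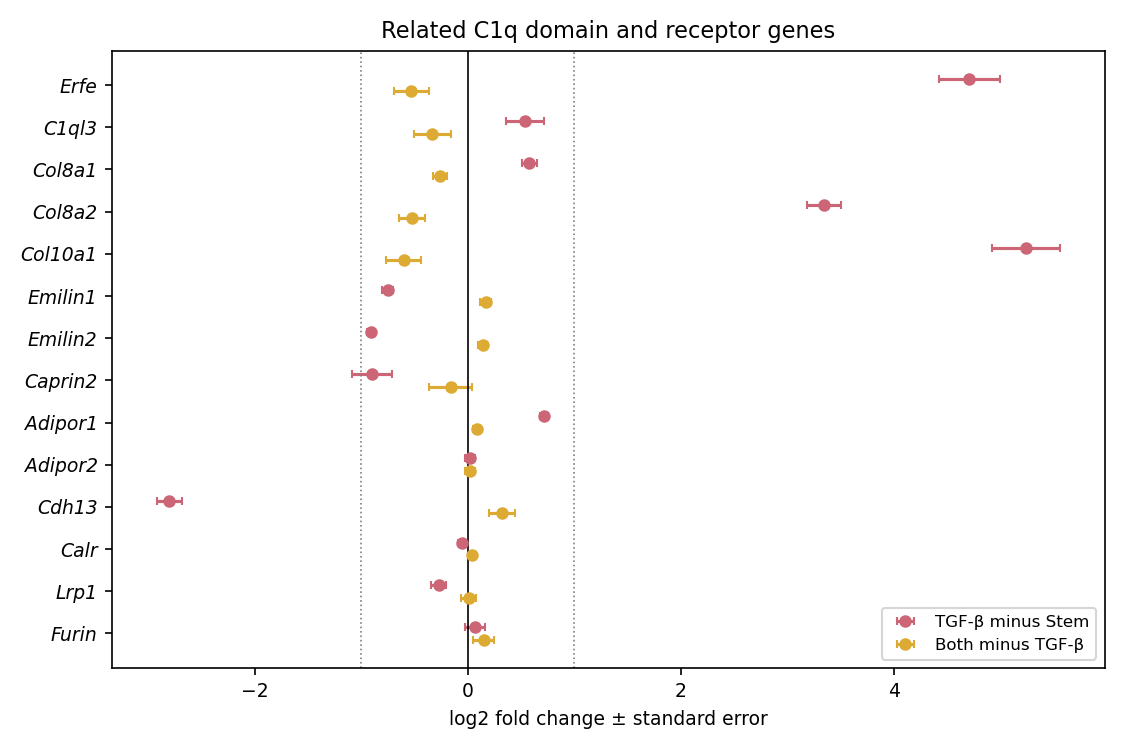
Log2 fold changes (horizontal axis) of the 14 related genes tested, with bars of 1 standard error, for TGF-β minus Stem and Both minus TGF-β. *Erfe*, *Col8a2* and *Col10a1* lie to the right of the 2-fold line and *Cdh13* to the left for TGF-β minus Stem, and no gene passes a line for Both minus TGF-β. The bars of *Erfe* and *Col10a1* for TGF-β minus Stem understate the error, since their Stem counts were few.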

How the data were processed

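The authors made libraries from ribosome-depleted RNA and sequenced paired reads. The deposited table holds raw counts per Ensembl gene, not normalized. The study's methods name Flexbar, STAR and GRCm39, whereas the submitters' processing notes list HISAT2 2.2.1, SAMtools 1.13, HTSeq 0.11.3 and GRCm39, without roles, so the aligner is uncertain. The strand setting and the handling of reads with several alignments or on shared bases are not given in the sources used here.

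Of the 55416 Ensembl identifiers, 52083 matched a gene symbol. Counts were analysed with edgeR 4.0.16 in R 4.3.3, with filterByExpr, TMM factors between 0.967 and 1.08, and group as the only factor of 1 quasi-likelihood fit to the 9 libraries. P values were adjusted by Benjamini-Hochberg over 14879 genes and called below 0.05 with a log2 fold change beyond 1, the fold minimum of the study's methods, which name DESeq2. Normalized counts are those of a library of 41200277, the mean after TMM. The lowest Spearman correlation between replicates was 0.995, taken over genes, which are not independent. Each standard error was taken as the size of the log2 fold change divided by the square root of the test's F statistic. Intervals on log2 fold changes were made from these standard errors. Intervals on summed counts are exact and cover counting error only. An exact permutation test of 3 libraries against 3 cannot go below p = 0.1 and was not used. Transcript lengths and exon overlap came from GENCODE M21 (GRCm38), another build than that of the counts, with bedtools 2.31.1, and sequences from RefSeq (GRCm38.p6).

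The alternatives were DESeq2 1.42.0, its size factors, total counts, other filters, other libraries in the fit, a replicate block, a prior count of 2 in place of 0.125, no fold minimum, TREAT, the longest transcript, Pearson correlation for likeness, and each library left out in turn. The pipeline was tested on simulated data. Members and gene lists were chosen with earlier results of these data known. All members were named. Related genes were named where they passed the threshold, and others are marked as named after their values were seen. For likeness the 3 nearest genes of each member were named.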

Additional observations from a re-analysis of the deposited data

How the results depend on the processing

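Removing the fold-change minimum raised the called members from 3 to 6 between Stem and TGF-β and from 0 to 3 between TGF-β and Both. Between Stem and Both the called members went from 2 to 4. The called related genes rose from 4 to 11 between Stem and TGF-β and from 0 to 4 between TGF-β and Both. Without the minimum, 37.3% of all genes were called higher and 37.7% lower in TGF-β than in Stem. From TGF-β to Both these shares were 3.54% and 5.38%, and for Stem and Both the share was not computed. Nothing is read from these counts. Scaling by total counts moved the median of all genes by -0.12 from Stem to TGF-β, which put *Emilin2* (-1.03) and *Caprin2* (-1.02) past the threshold, for 6 related genes, and turned *Adipor2* to -0.1 and *Furin* to -0.05, by construction of the scaling. With 1 library left out, *Adipor2* ranged from -0.02 to 0.08 and *Furin* from -0.05 to 0.19 between Stem and TGF-β. Between TGF-β and Both, *Caprin2* ranged from -0.44 to 0.01, *Lrp1* from -0.06 to 0.07 and *Amacr*, the neighbor of *C1qtnf3*, from -0.08 to 0.01, and *C1qtnf12* ranged from -0.24 to 0.07 between Stem and Both. *Caprin2*, *Lrp1* and *Amacr* were named after their values were seen. The differences that changed sign were small, and the cause was not tested. All 144 values of members under alternatives that used every library kept their direction and side of the threshold, as did 159 of 162 with 1 library left out. Across all of these the log2 fold change from Stem to TGF-β stayed between 9.96 and 10.63 for *C1qtnf3*, 1.3 and 1.46 for *C1qtnf6*, and -2.16 and -1.9 for *C1qtnf7*. The difference in *C1qtnf12* between TGF-β and Both passed the adjusted p alone in 4 of 8 alternatives and in 3 of 9 fits without 1 library. Using the longest transcript moved levels per kb, so that *C1qtnf1* in Stem had 17.7. With the replicate block, 3, 0 and 2 members were called, and 3736, 120 and 3394 of all genes against 3739, 94 and 3385 without it. Deviations of libraries with the same number correlated between 0.139 and 0.196 for replicate 2, 0.00886 and 0.11 for replicate 1, and -0.0539 and 0.0185 for replicate 3. Not every pair was over 0.1, so pairing was not established. Depth limits *C1qtnf4*, at 2 to 9 counts.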

Other observations

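Cell type markers outside the CTRP family differed between groups. *Pi16*, a marker of adventitial progenitors, had 507.7, 530.3 and 484.7 normalized counts for Stem, 5650, 5950 and 5713 for TGF-β and 3709, 4136 and 3641 for Both. It rose by a log2 fold change of 3.51 (SE 0.0595, adjusted p = 3.66e-13, edgeR) from Stem to TGF-β, while *Ly6a* fell by 3.02 (SE 0.116) and *Cd34* fell by 4.18 (SE 0.181). *Ahsg*, the gene of the plasma protein fetuin-A, had 253, 218 and 256 counts in Stem and between 11 and 16 in the other libraries, a log2 fold change of -4.31 (SE 0.164, adjusted p = 2.2e-10, edgeR). *Csf1r*, the receptor of macrophage colony-stimulating factor, had means of 28.49 normalized counts for Stem, 76.09 for TGF-β and 138.4 for Both, with *Adgre1* and *Itgam* at 0 in every library. *Csf1r* rose by 1.41 (SE 0.244, adjusted p = 2.07e-04, edgeR) from Stem to TGF-β. *Cd68*, of the same marker list, rose by 1.86 (SE 0.506, adjusted p = 0.00475, edgeR) from a Stem mean of 3.526. *Cd14*, also of that list, fell by 1.57 (SE 0.105, adjusted p = 4.22e-08, edgeR). These genes were named after their values were seen.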
